A study of Mus musculus with 8 samples.

Results

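The KMT2 and SETD1 enzymes, with the scaffold proteins they share, are described here in the amygdala of mice that drank aspartame or plain water. The members were chosen by gene symbol: Kmt2a, Kmt2b, Kmt2c, Kmt2d, Kmt2e, Setd1a, Setd1b, Wdr5, Ash2l and Rbbp5. All 10 were among the 24982 genes of the deposited table, and all 10 passed the minimum level that left 12870 genes for testing. The family was proposed with the measured differences between aspartame and water known, Kmt2d among the largest, so its differences and p-values are a description of these libraries and no independent evidence. The study asked which genes of the amygdala, a region that regulates anxiety and fear, changed in mice given aspartame. The aspartame group was 4 C57BL/6 mice given 0.03% aspartame, an artificial sweetener, in the drinking water, and the water group was 4 C57BL/6 mice given plain drinking water. All were bought at 8 weeks of age, were labelled male and were 187 to 189 days old at collection. The labels give 18 weeks of exposure, whereas the methods of the study give a shorter one. The amygdala of each mouse was microdissected, and 1 stranded mRNA library per mouse was sequenced.

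Enzymes of this family place methyl groups on lysine 4 of histone H3 (H3K4), a mark of active promoters and enhancers. SETD1A and SETD1B write most trimethylation at promoters, KMT2A and KMT2B act at chosen promoters such as those of developmental genes, and KMT2C and KMT2D write monomethylation at enhancers. Each works in a complex on the scaffold WDR5, RBBP5, ASH2L and DPY30, while KMT2E carries a diverged SET domain and is not known to methylate H3K4 in that complex. In people, loss of 1 copy of several of these genes causes developmental disorders of the brain, as KMT2D does in Kabuki syndrome.

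The 6 catalytic members form 3 paralog pairs. The ends of their coding sequences are shown because reads of 150 bases had to tell paralogs apart in this stretch. It codes for the end of the SET domain, which carries the enzyme activity. Each line holds the last 150 coding bases, stop codon included, of the longest protein-coding GENCODE M21 transcript on GRCm38. Capitals mark the bases that differ from the paralog partner at the same distance from the stop codon.
Kmt2a (chr9:44807902-44808051, minus strand): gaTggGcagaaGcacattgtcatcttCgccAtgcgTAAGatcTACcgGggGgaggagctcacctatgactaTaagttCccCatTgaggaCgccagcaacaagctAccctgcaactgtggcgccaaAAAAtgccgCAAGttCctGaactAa
Kmt2b (chr7:30569161-30569310, minus strand): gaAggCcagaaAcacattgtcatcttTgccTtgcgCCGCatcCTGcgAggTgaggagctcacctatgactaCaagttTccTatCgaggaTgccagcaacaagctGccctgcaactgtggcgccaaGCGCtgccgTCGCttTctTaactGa
Kmt2c (chr5:25273666-25275684, minus strand, across exons): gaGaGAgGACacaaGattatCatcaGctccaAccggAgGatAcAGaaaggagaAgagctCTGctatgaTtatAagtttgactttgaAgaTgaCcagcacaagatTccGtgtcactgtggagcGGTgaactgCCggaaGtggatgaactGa
Kmt2d (chr15:98834500-98834772, minus strand, across exons): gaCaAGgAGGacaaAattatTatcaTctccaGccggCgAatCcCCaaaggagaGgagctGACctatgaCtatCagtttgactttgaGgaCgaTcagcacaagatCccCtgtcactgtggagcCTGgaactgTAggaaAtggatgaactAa
Setd1a (chr7:127799330-127799479, plus strand): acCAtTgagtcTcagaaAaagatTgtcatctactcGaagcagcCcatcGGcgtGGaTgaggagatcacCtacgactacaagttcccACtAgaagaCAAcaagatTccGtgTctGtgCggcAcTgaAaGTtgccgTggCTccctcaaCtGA
Setd1b (chr5:123165857-123166006, plus strand): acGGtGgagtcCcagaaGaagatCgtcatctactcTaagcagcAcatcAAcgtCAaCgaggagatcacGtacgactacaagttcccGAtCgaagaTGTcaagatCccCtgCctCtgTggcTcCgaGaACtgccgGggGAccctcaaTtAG
Partners were 79.3% identical for Kmt2a and Kmt2b, 78.0% for Kmt2c and Kmt2d, and 76.0% for Setd1a and Setd1b, with 31, 33 and 36 differing bases in the window. Members of different pairs shared 38.7% to 65.3% of the bases. Over the whole coding sequence the partners also differed in base composition. The third position of the codon was G or C in 59.9% of the codons of Kmt2d and 39.8% of those of Kmt2c. The shares were 69.5% in Setd1b and 54.7% in Setd1a, and 56.5% in Kmt2b and 53.2% in Kmt2a.

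All values are regularized log2 (rlog) values, in which the counts of each library were scaled and low counts were drawn toward the mean of the gene, so a difference of 1 is a doubling at most levels and an understated one in low genes. The table holds no counts, so the depth behind each value is unknown. Libraries stood apart in several ways that bear on every result, and a step with transcript GC content is described further below. The first was aspartame 2. On the first principal component, with 55.8% of the variance, aspartame 2 lay at -27.6. The other aspartame libraries lay at 5.55 to 24.0 and the water libraries at -10.3 to 4.32. Aspartame 4 (24.0) and aspartame 1 (17.9) were at the opposite end from aspartame 2. The step between genes of high and low GC content had the same ends. It was lowest in aspartame 2 (-0.65) and highest in aspartame 4 (0.46) and aspartame 1 (0.38). The study left out 1 aspartame sample without naming it, and the differences of the members are therefore given without aspartame 2 and then with all 8 libraries.

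The second concerned sex-linked genes. Xist, the RNA that coats the inactive X chromosome in females, was at an rlog of 11.5 in aspartame 1, 10.96 in water 1 and 11.4 in water 3, against 5.59 to 6.66 in the other 5 libraries. The mean of 4 Y-linked genes (Ddx3y, Eif2s3y, Kdm5d and Uty) was 5.0 in aspartame 1, 4.62 in water 1 and 4.72 in water 3, against 6.86 to 7.54 in the other 5. These 3 of 8 libraries thus went against the male label, 1 in the aspartame group and 2 in the water group, and these genes cannot check their water and aspartame labels. Results are also given with these 3 libraries, called Xist-high from here on, as a covariate and with them left out, alternatives chosen after seeing the data.

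Without aspartame 2, limma called 1134 of 12870 genes at an adjusted p under 0.05, which is 8.81% of the genes tested. Of these, 785 were higher with aspartame (6.1%) and 349 were lower (2.71%). The split was 715 to 519 after quantile normalization. With all 8 libraries limma called 0 genes (0%), while 553 (4.3%) had an unadjusted p under 0.05. Without aspartame 2, 5 members were called higher, namely Kmt2a, Kmt2b, Kmt2d, Setd1a and Setd1b, and 0 were called lower. The same 5 were the members whose aspartame libraries all lay above every water library, as did 1410 genes (11%) in the table. Wdr5 was the only member with every aspartame library below every water library, and 2955 genes (23%) did not overlap in either direction. Since the members were chosen on this contrast, nothing is read from these shares. Leaving out 1 of the 7 libraries gave 110 genes without water 3 up to 2082 without aspartame 3, and 3 members (without aspartame 4, water 3 or water 4) up to 6 (without aspartame 3). With all 8 libraries 0 members were called, 4 had an unadjusted p under 0.05 (Kmt2a, Kmt2d, Kmt2e and Setd1b), and Wdr5 alone among the members did not overlap, as for 433 genes (3.37%) in the table.

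**Figure D1:**
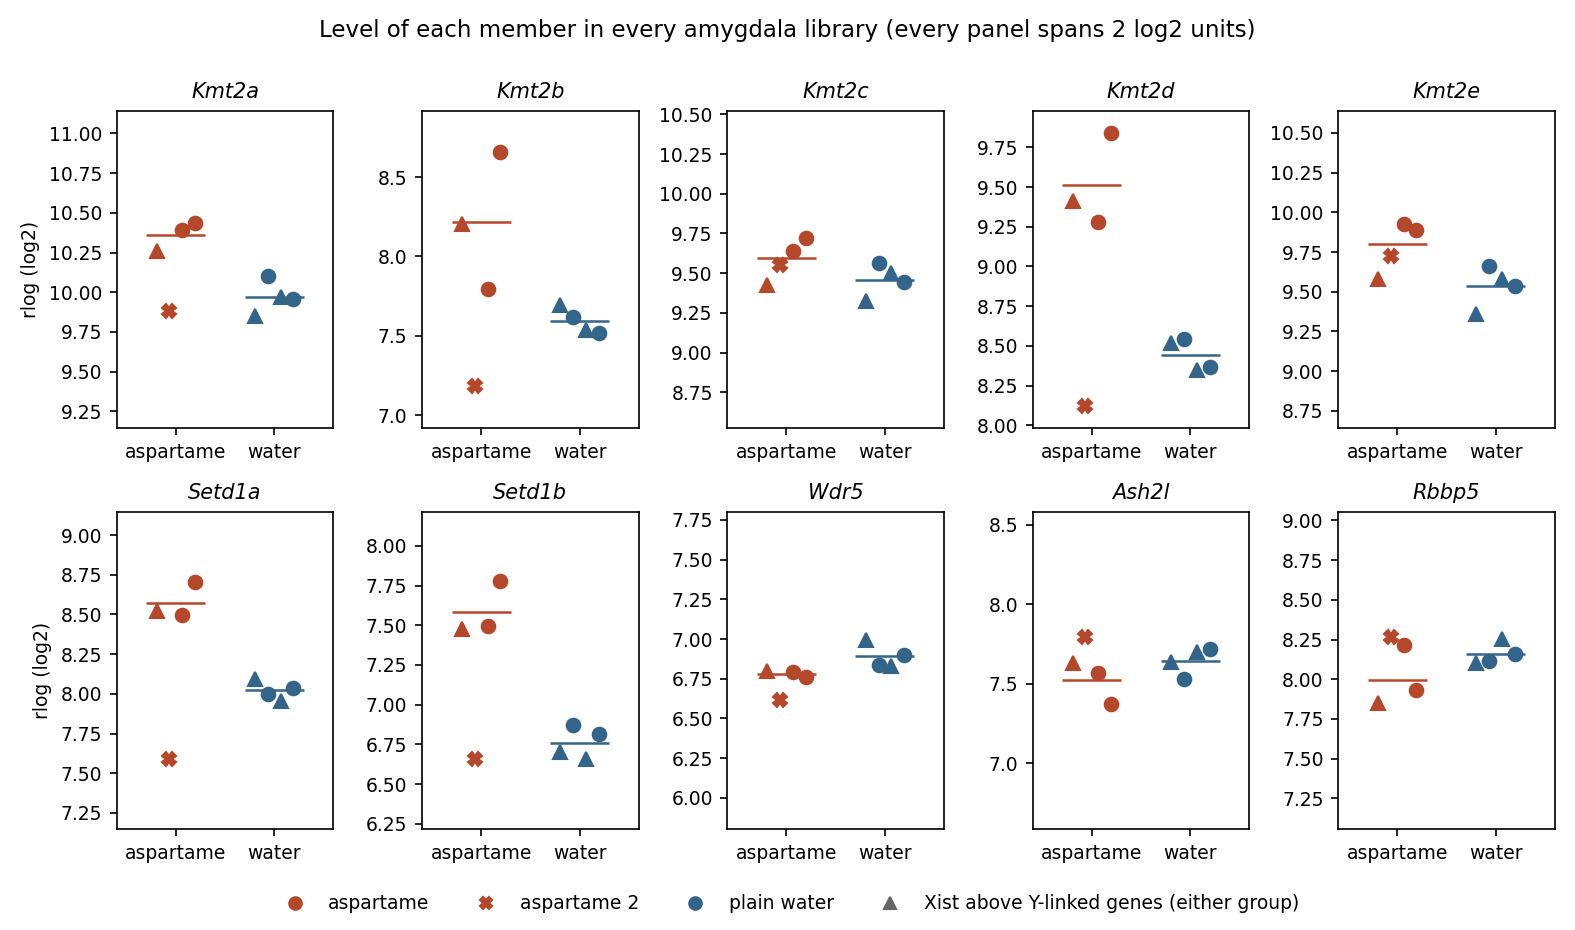
Regularized log2 level of the 10 members in each of the 8 libraries, aspartame left and water right, with a line at the mean of aspartame 1, 3 and 4 and of the 4 water libraries; each panel spans 2 log2 units. Crosses mark aspartame 2 and triangles the 3 libraries with Xist above the Y-linked genes. Kmt2d shows the widest step, with aspartame 1, 3 and 4 between 9.28 and 9.84 and every other library between 8.12 and 8.54.

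Kmt2d, an enhancer H3K4 monomethyltransferase on chromosome 15 (98831669 to 98871204, minus strand, GRCm38), showed the largest difference of the family. Its rlog was 9.41, 8.12, 9.28 and 9.84 in aspartame 1 to 4, against 8.52, 8.54, 8.35 and 8.36 in water 1 to 4. Aspartame 1, 3 and 4 were above every water library, and aspartame 2 was below them all. Without aspartame 2 the difference was 1.07 ± 0.12 (SE, 95% interval 0.80 to 1.33, adjusted p from limma 0.00797), a 2.10-fold higher level on the rlog scale, and it ranked 7 from the top among the differences of the 12870 genes. With all 8 libraries it was 0.72 ± 0.28 (adjusted p from limma 0.903). The difference was 1.06 with the 3 Xist-high libraries as a covariate (adjusted p from limma 0.0122), and 1.11 with them left out (adjusted p from limma 0.202). Leaving out each of the 7 libraries in turn gave 0.90 to 1.18, and Kmt2d was called in all 7 of these fits.

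Kmt2c, the paralog of Kmt2d with the same task at enhancers, was not called. It had an rlog of 9.42, 9.55, 9.64 and 9.72 in aspartame 1 to 4 and 9.32, 9.56, 9.50 and 9.45 in water 1 to 4, with overlapping groups. The difference was 0.14 ± 0.090 (SE, 95% interval -0.061 to 0.33, adjusted p from limma 0.359) without aspartame 2 and 0.13 with all 8 libraries. Set within each library, Kmt2d minus Kmt2c was -0.014, -1.43, -0.36 and 0.12 in aspartame 1 to 4, against -0.80, -1.02, -1.15 and -1.08 in water 1 to 4. Thus the gap between the values was narrow in aspartame 1 and 4, wider in aspartame 3, and widest in water and in aspartame 2. These values are not scaled by transcript length. Per kilobase of transcript, Kmt2d was lower than Kmt2c in both groups. The levels were 5.20 against 5.69 in aspartame 1, 3 and 4 and 4.14 against 5.55 in water. The shift of Kmt2d minus Kmt2c within a library was 0.93 without aspartame 2 and 0.59 with all 8 libraries. The part of reads shared between the paralogs was not tested.

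Setd1b and Setd1a write H3K4 trimethylation at promoters. Setd1b had an rlog of 7.47, 6.66, 7.49 and 7.78 in aspartame 1 to 4, against 6.70, 6.87, 6.65 and 6.81 in water 1 to 4. Setd1a had 8.52, 7.59, 8.50 and 8.71 in aspartame 1 to 4, against 8.10, 8.00, 7.95 and 8.04 in water 1 to 4. In both genes aspartame 1, 3 and 4 lay above the whole water group, while aspartame 2 lay within the water range for Setd1b and below it for Setd1a. The difference of Setd1b was 0.82 ± 0.098 (SE, adjusted p from limma 0.00797), which is 1.76-fold, without aspartame 2 and 0.59 with all 8 libraries. That of Setd1a was 0.55 ± 0.080 (SE, adjusted p from limma 0.00881) without aspartame 2 and 0.31 with all 8 libraries. Both kept their call under each of the 7 single-library omissions, with adjusted p-values from limma of 0.0422 or less for Setd1b and 0.0439 or less for Setd1a. Setd1b minus Setd1a within a library was -1.05, -0.93, -1.01 and -0.93 in aspartame 1 to 4. In water 1 to 4 it was -1.39, -1.13, -1.30 and -1.22, so the 2 groups did not overlap with all 8 libraries. They overlapped in this pair once the trend with GC content and length, described below, was removed without aspartame 2. The share of gene pairs that separate in this way was not computed.

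Kmt2a and Kmt2b, the enzymes that also bind menin, had smaller or less even differences. Kmt2a had an rlog of 10.3, 9.88, 10.4 and 10.4 in aspartame 1 to 4 against 9.85, 10.1, 9.97 and 9.96 in water 1 to 4. The difference was 0.39 ± 0.082 (SE, adjusted p from limma 0.0184) without aspartame 2 and 0.27 with all 8 libraries. Kmt2b had 8.21, 7.18, 7.80 and 8.66 in aspartame 1 to 4 against 7.69, 7.62, 7.54 and 7.52 in water 1 to 4. Its aspartame libraries spread over 1.47 log2 units and its water libraries over 0.17. The difference of Kmt2b was 0.63 ± 0.15 (SE, adjusted p from limma 0.0316) without aspartame 2 and 0.37 with all 8 libraries. Kmt2b minus Kmt2a within a library was -2.05, -2.70, -2.59 and -1.78 in aspartame 1 to 4 and -2.16, -2.48, -2.43 and -2.44 in water 1 to 4, so this pair overlapped between the groups. Neither call held in every single-library omission. Kmt2a was called in 4 of these 7 fits, with differences of 0.35 to 0.44, and Kmt2b in 2, with differences of 0.41 to 0.84. The adjusted p of Kmt2a from limma was 0.0644 without aspartame 4, 0.0678 without water 3 and 0.0708 without water 4. With age in days as a covariate it was 0.0579. That of Kmt2b was 0.0689 without aspartame 1, 0.0858 without aspartame 4, 0.0675 without water 2, 0.0957 without water 3 and 0.0900 without water 4, and 0.0904 with age as a covariate.

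Kmt2e, the member with the diverged SET domain, had an rlog of 9.58, 9.73, 9.92 and 9.89 in aspartame 1 to 4, against 9.36, 9.66, 9.58 and 9.54 in water 1 to 4. It was the only member higher than every water library in aspartame 2 that was also higher on average in the other 3. The groups overlapped through aspartame 1, and the difference was 0.26 ± 0.10 (SE, adjusted p from limma 0.122) without aspartame 2 and 0.25 with all 8 libraries. Without aspartame 1 its adjusted p from limma was 0.0473.

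The 3 shared scaffold subunits were slightly lower with aspartame, and 0 of them were called. Wdr5, the histone-binding core subunit, had an rlog of 6.80, 6.61, 6.79 and 6.76 in aspartame 1 to 4, against 6.99, 6.84, 6.83 and 6.90 in water 1 to 4. The groups did not overlap, but the difference was small at -0.11 (adjusted p from limma 0.406) without aspartame 2 and -0.15 with all 8 libraries. Ash2l, which stabilizes the active enzyme with DPY30, had 7.63, 7.80, 7.56 and 7.37 in aspartame 1 to 4 and 7.63, 7.53, 7.70 and 7.72 in water 1 to 4, a difference of -0.12 (adjusted p from limma 0.391) without aspartame 2 and -0.055 with all 8 libraries. Rbbp5, which joins the SET domain to the core, had 7.85, 8.26, 8.21 and 7.93 in aspartame 1 to 4 and 8.10, 8.12, 8.25 and 8.16 in water 1 to 4, a difference of -0.16 (adjusted p from limma 0.306) without aspartame 2 and -0.092 with all 8 libraries. Without aspartame 3 that of Rbbp5 was -0.27, with an adjusted p from limma of 0.0435. The median difference without aspartame 2 was 0.59 over the 6 catalytic members and -0.12 over these 3 subunits, against -0.0042 over all genes tested. These medians were 0.34, -0.092 and 0.0033 with all 8 libraries.

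**Figure D2:**
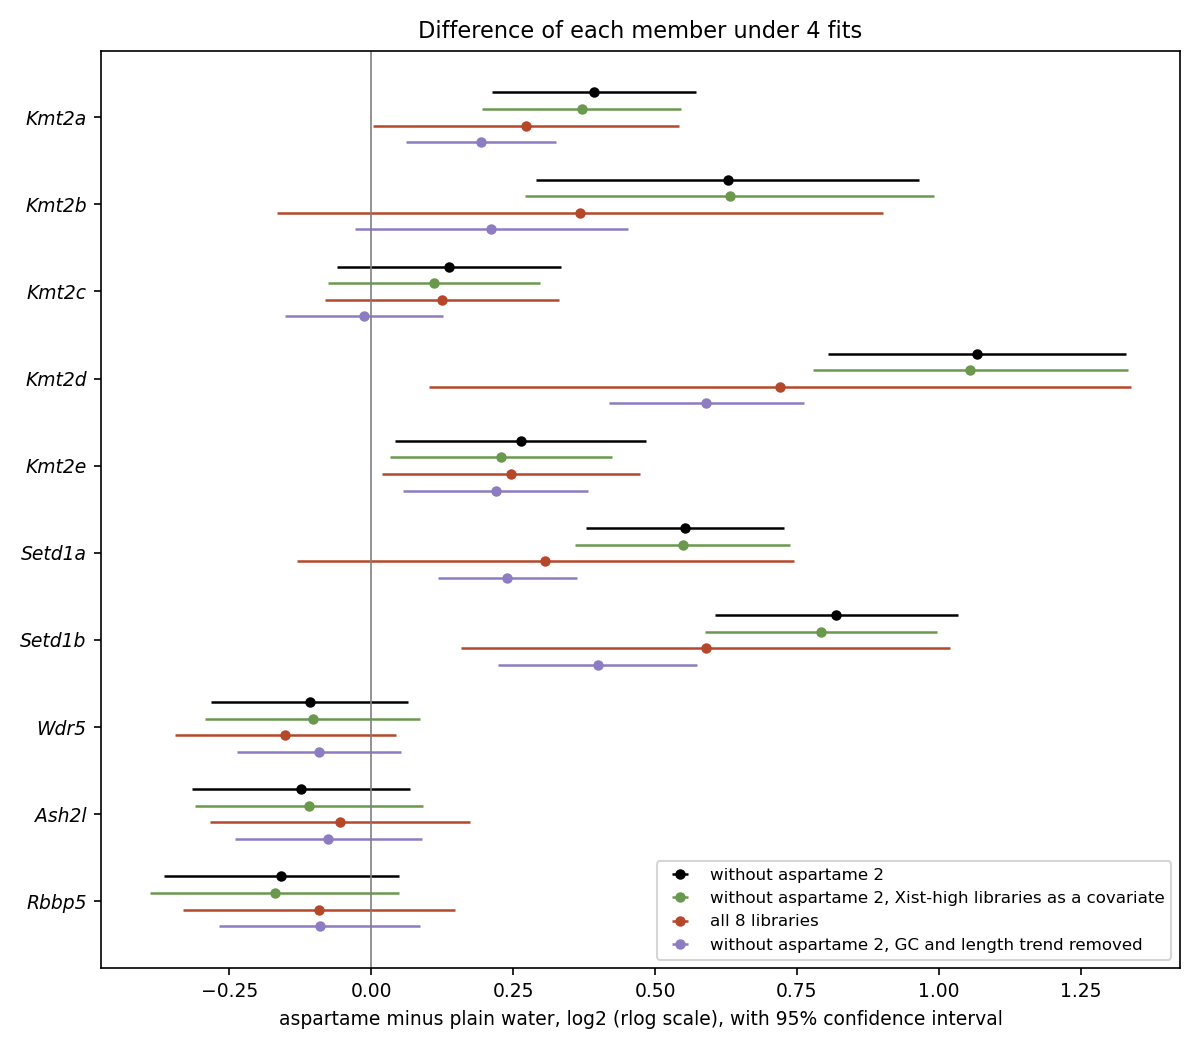
Aspartame minus plain water for each member on the rlog (log2) scale, with 95% confidence intervals, under 4 limma fits: without aspartame 2, the same with the 3 Xist-high libraries as a covariate, all 8 libraries, and without aspartame 2 after removal of the trend with transcript GC content and length. Kmt2d runs from 0.59 to 1.07 over the 4 fits, and Wdr5, Ash2l and Rbbp5 are below 0 in each.

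The same 5 members were called with the Xist-high libraries as a covariate, a fit that called 757 genes (5.88%). Their differences were 0.37 for Kmt2a, 0.63 for Kmt2b, 1.06 for Kmt2d, 0.55 for Setd1a and 0.79 for Setd1b. With these libraries left out, 2 aspartame and 2 water libraries remained, and the differences were 0.38, 0.66, 1.11, 0.58 and 0.79 in the same order. In that smallest set limma called 0 genes, 0 of them members, while 2106 genes and 6 members had an unadjusted p under 0.05, and the lowest adjusted p of a member was 0.202. These sizes were close to those of the 7 libraries, of which these 4 libraries are a part, and the test had 2 residual degrees of freedom. With aspartame 2 kept and the Xist-high libraries left out, the differences were 0.21, 0.31, 0.63, 0.25 and 0.47 in the same order. In that set 85 genes and 0 members had an unadjusted p under 0.05 by limma. With all 8 libraries and the covariate, they were 0.26, 0.41, 0.75, 0.34 and 0.58, each with an adjusted p from limma of 0.923.

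All 6 catalytic members were highest in aspartame 4. Their mean over the water mean was 0.51, -0.21, 0.48 and 0.82 in aspartame 1 to 4, against -0.010, 0.076, -0.047 and -0.019 in water 1 to 4. Aspartame 2 lay below the water range in 4 of the 10 members (Kmt2b, Kmt2d, Setd1a and Wdr5), above it in 3 (Kmt2e, Ash2l and Rbbp5) and within it in 3.

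Transcript base composition moved with these values. The 4 members with a transcript GC content over 55%, namely Kmt2b (59.1%), Setd1b (59.0%), Kmt2d (58.4%) and Setd1a (57.0%), had the 4 largest differences. Kmt2a (50.6%), Kmt2c (47.6%) and Kmt2e (45.9%) had smaller ones, and Wdr5 (51.5%), Ash2l (48.6%) and Rbbp5 (46.9%) were below 0. Over all genes, the decile with the highest GC content (1279 genes) had a median difference of 0.25 without aspartame 2, with 327 called higher and 4 lower, and the decile with the lowest GC content had a median of -0.092. These medians were 0.12 and -0.0053 with all 8 libraries. The step between GC-rich and GC-poor genes was 0.38, -0.65, 0.032 and 0.46 in aspartame 1 to 4 and 0.20, -0.13, -0.22 and -0.12 in water 1 to 4, so aspartame 1 and 4 and, with the opposite sign, aspartame 2 had the widest steps. Transcript length moved too. The decile of longest transcripts, from 7043 bases on, had a median difference of 0.077 without aspartame 2, with 181 called higher and 4 lower, and of 0.085 with all 8 libraries. Kmt2d, with 19823 bases, was longer than 99.9% of the genes tested. The step between long and short genes was -0.038, 0.099, 0.19 and 0.091 in aspartame 1 to 4 and -0.24, -0.012, -0.010 and -0.070 in water 1 to 4, wider than the GC step in aspartame 3 and water 1.

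**Figure D3:**
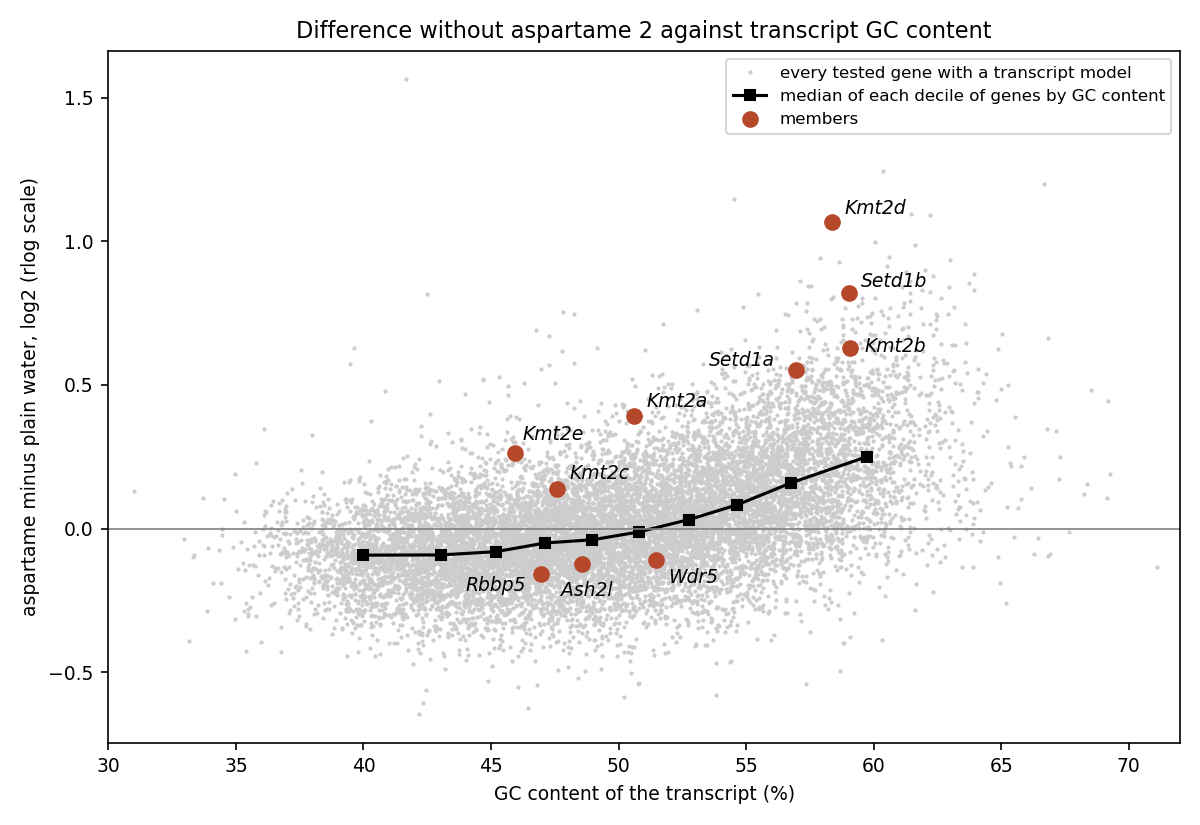
Difference between aspartame and plain water without aspartame 2, on the rlog (log2) scale, against the GC content of the transcript for every tested gene with a transcript model (grey), the median of each decile of genes by GC content (black squares) and the 10 members (red). The medians run from -0.092 in the lowest decile to 0.25 in the highest, and Kmt2d at 58.4% GC lies at 1.07.

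After a smooth trend with GC content and length was removed from each library, limma called 248 genes (1.94%) and 2 members. Kmt2d kept a difference of 0.59 (adjusted p from limma 0.0231) and Setd1b one of 0.40 (adjusted p from limma 0.0391). The others were 0.24 for Setd1a (adjusted p 0.0548), 0.21 for Kmt2b (adjusted p 0.294), 0.19 for Kmt2a (adjusted p 0.109), 0.22 for Kmt2e and -0.013 for Kmt2c, and the 3 scaffold subunits lay between -0.092 and -0.075. The trend is set by few genes as long as Kmt2d, and the part of GC content in the differences was not tested beyond this removal.

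**Figure D4:**
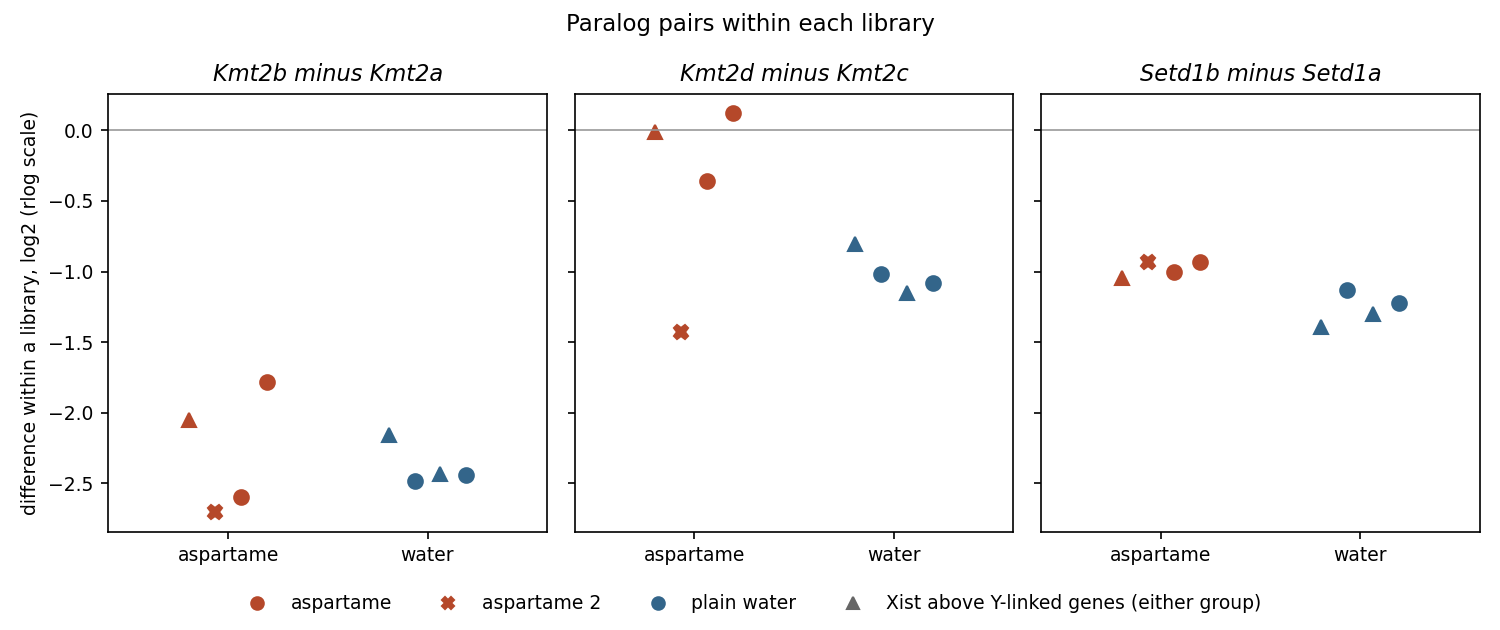
Within-library difference of each paralog pair on the rlog (log2) scale, aspartame left and water right, with aspartame 2 as a cross and the Xist-high libraries as triangles. Kmt2d minus Kmt2c is between -0.36 and 0.12 in aspartame 1, 3 and 4 and between -1.15 and -0.80 in water, and Setd1b minus Setd1a separates the groups with all 8 libraries. The trend with GC content and length is not removed here, and with it removed the groups overlap in Setd1b minus Setd1a.

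Compared per length of transcript, the members kept an uneven order. Levels per kilobase (rlog minus log2 of the transcript length in kilobases) in aspartame 1, 3 and 4 were 6.93 for Kmt2e, 6.32 for Kmt2a, 6.24 for Rbbp5, 5.88 for Setd1a, 5.80 for Ash2l, 5.69 for Kmt2c, 5.25 for Wdr5, 5.20 for Kmt2d, 5.14 for Kmt2b and 4.43 for Setd1b. In the water libraries they were 6.66 for Kmt2e, 6.40 for Rbbp5, 5.93 for Kmt2a, 5.92 for Ash2l, 5.55 for Kmt2c, 5.36 for Wdr5, 5.32 for Setd1a, 4.51 for Kmt2b, 4.14 for Kmt2d and 3.61 for Setd1b. Setd1b was the lowest in both groups and Kmt2e the highest. Among neighbours in the water order, Kmt2e and Rbbp5, Kmt2a and Ash2l, Kmt2c and Wdr5, and Wdr5 and Setd1a overlapped, whereas Setd1a, Kmt2b, Kmt2d and Setd1b did not overlap with one another in the water libraries. In aspartame 1, 3 and 4, Wdr5, Kmt2d and Kmt2b overlapped as neighbours, and Kmt2d stood before Kmt2b. With all 4 aspartame libraries Kmt2e was still highest at 6.91 and Setd1b lowest, and Kmt2b at 4.88 and Kmt2d at 4.86 overlapped.

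Other genes of the pathway were taken from 6 lists, 64 genes in all, of which 63 were tested. Without aspartame 2, 4 were called higher and 1 lower, which is 7.94% of the 63, near the 8.81% over all genes. With all 8 libraries 0 were called, and 3 (4.76%) had an unadjusted p under 0.05 by limma, near the 4.3% over all genes. Among 15 further subunits of these complexes, 2 rose and 1 fell, with a median of -0.023. Hcfc1, which recruits SETD1 and KMT2 complexes to promoters, had a difference of 0.38 ± 0.096 (SE, adjusted p from limma 0.0342), and Pagr1a, a partner of the KMT2C and KMT2D complexes, of 0.35 (adjusted p 0.0396). Dpy30, the fourth scaffold subunit, had an rlog of 5.66, 5.86, 5.39 and 5.52 in aspartame 1 to 4 against 5.82, 5.89, 5.97 and 5.78 in water 1 to 4, a difference of -0.34 (adjusted p 0.0442). A list of 18 genes drawn up as readers of methylated H3K4 had a median of 0.057, and the binding of each gene to that mark was not checked. In it the demethylase Phf2 (0.33, adjusted p from limma 0.0378) and the acetyltransferase Kat6b (0.29, adjusted p from limma 0.0441) rose. Their differences with all 8 libraries were 0.25 for Hcfc1, 0.18 for Pagr1a, -0.26 for Dpy30, 0.16 for Phf2 and 0.19 for Kat6b. Each of these 5 calls was lost without water 2, 3 or 4 and without aspartame 4, with adjusted p-values from limma of 0.0728 to 0.141, and after removal of the GC trend. Single calls were also lost without water 1 (Hcfc1 0.0517, Dpy30 0.055 and Kat6b 0.0591), without aspartame 1 (Pagr1a 0.0832 and Phf2 0.0861) or without aspartame 3 (Dpy30 0.071). With the Xist-high libraries as a covariate Hcfc1 alone kept its call (adjusted p 0.0484), and the others were at 0.0568 to 0.0717.

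No gene was called in the other 4 lists without aspartame 2. The enzyme activity of each gene in these lists was not checked. The 7 genes listed as other H3K4 methyltransferases had a median difference of 0.14, with Setd7 at 0.22 and Setmar at -0.21. Setd7 had an adjusted p from limma of 0.044 without aspartame 1, and Setmar of 0.0493 without aspartame 3. The 7 genes listed as H3K4 demethylases, which remove the mark, had a median of 0.090, with Kdm5c at 0.23 and Kdm2b at 0.22. One of them, the Y-linked Kdm5d, was at an rlog of 4.88, 7.01, 6.70 and 6.71 in aspartame 1 to 4 and 4.50, 7.02, 4.61 and 7.02 in water 1 to 4, low in the 3 Xist-high libraries. The 6 genes listed as H3K36 methyltransferases had a median of 0.038, with Nsd3 at 0.12 and Nsd1 at 0.11. The 10 tested genes of the Polycomb repressive complex that methylates H3K27 had a median of 0.0093, with Rbbp4 at -0.19 and Rbbp7 at -0.16. Kdm5c was at 0.10, Kdm2b at 0.11, Rbbp4 at -0.081 and Rbbp7 at -0.033 with all 8 libraries. At an unadjusted p under 0.05 by limma without aspartame 2, these 4 lists held 6 of 30 genes (20%), against 3485 of all genes tested (27.1%).

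By the root mean square difference of centered rlog values over the 8 libraries, the 5 genes nearest to Kmt2d among 12860 were Gigyf1 (0.112), Lrp1 (0.114), Bcl9l (0.123), Plec (0.125) and Ptpn23 (0.139). Lrp1, a large cell surface receptor for lipoproteins and proteases, had an rlog of 10.4, 8.92, 10.2 and 10.8 in aspartame 1 to 4 against 9.68, 9.50, 9.39 and 9.49 in water 1 to 4. Gigyf1, an adaptor of translational repression, had 7.84, 6.52, 7.49 and 8.24 in aspartame 1 to 4 against 7.16, 6.92, 6.78 and 6.83 in water 1 to 4. In both, as in Kmt2d, aspartame 4 was highest and aspartame 2 lowest. These genes were picked for likeness over the same 8 libraries, so the shared order is no separate result. The step between GC-rich and GC-poor genes was also highest in aspartame 4 (0.46) and lowest in aspartame 2 (-0.65). The part of GC content in this likeness was not tested. Among the members Setd1b ranked 44, Kmt2b 81, Setd1a 148 and Kmt2a 924 in this order, and the other 5 ranked from 2954 to 10697.

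Cell type markers were read beside these values, since in bulk tissue fewer cells of a type and less RNA per cell cannot be told apart. Neuron markers averaged an rlog of 11.6 to 11.7 in both groups, and all 10 markers of amygdala nuclei were detected above the minimum level. The mean of 4 GABAergic neuron markers was 8.36 to 8.61 in aspartame 1, 3 and 4 and 8.35 in aspartame 2. In water it was 8.07 to 8.33, without overlap, and 1 of 4 genes was called higher. Among single genes, 11% lay wholly higher with aspartame in the fit without aspartame 2, and 6.1% were called higher. With all 8 libraries, 3.37% did not overlap in either direction. Such shares were not computed for means of lists, so nothing is read from this step. Oligodendrocyte markers were 8.56 to 9.34 in aspartame 1, 3 and 4 and 8.39 in aspartame 2, against 8.48 to 8.80 in water, with 1 of 5 called higher. Striatal markers were 6.65 to 7.82 in aspartame 1, 3 and 4 and 6.79 in aspartame 2, against 6.48 to 7.19 in water, with 0 of 6 called. The other lists overlapped between the groups. Among them 1 of 5 neuron markers was called higher and 1 lower, and 1 of 4 markers of oligodendrocyte precursors was called higher. Choroid plexus markers averaged 4.10 to 4.31 in aspartame 1, 3 and 4 and 4.09 in aspartame 2, against 5.73 in water 1 and 4.02 to 4.03 in the other water libraries. The mean of each of the 5 blood markers was below the minimum level. Hbb-bs, Hbb-bt, Hba-a1 and Hba-a2 were at 0 in every library, and Alas2 ran from 2.77 to 3.05. The share of blood in the tissue cannot be read from these values. The part of cell type shares in the differences of the members was not tested.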

How the data were processed

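Amygdala mRNA of 8 mice was sequenced in 1 stranded library each, as paired reads of 150 bases. Per the methods of the study, STAR placed the reads on mm10, and Salmon gave the read counts of genes. The authors used DESeq2 for their principal components and gene tests. The authors deposited 1 table of regularized log2 (rlog) values; the options of that step are not given in the sources used here, no column belongs to other samples (0 columns), and depth is unknown. Here limma 3.58.1 in R 4.3.3 (lmFit, eBayes with a mean-variance trend) compared aspartame with water over genes whose mean rlog reached 3, with Benjamini-Hochberg adjustment over all of them and a threshold of 0.05. The first fit leaves out aspartame 2, and all 8 libraries were fitted as well. The script was tested on simulated data with known changes.

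Genes named are the 10 members, from each pathway list every gene called (up to 4 in each direction) or the 2 with the smallest p, and the 5 genes nearest to Kmt2d. Members and lists were chosen with earlier results of these data known. Transcript length, GC content, coordinates and sequences come from GENCODE M21 on GRCm38, and 12787 of 12870 genes tested (99.4%) had a model. The trend with GC content and length was removed from each library with natural splines of 5 degrees of freedom. Libraries against their labelled sex were those with Xist above the mean of 4 Y-linked genes. Other alternatives were the minimum level, scaling, age, replicate blocks, library weights and single libraries left out. Tables were handled in Python 3.11.15. P-values measure the spread between the mice kept in each fit. Without aspartame 2 that spread lacks the aspartame library farthest from its group on the first principal component. For Kmt2d the SD over the aspartame libraries was 0.29 without aspartame 2 and 0.74 with it.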

Additional observations from a re-analysis of the deposited data

How the results depend on the processing

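Of 758 values of single genes under the alternatives, 643 kept their direction and side of the threshold, 86 lost a call, 20 gained one and 9 changed sign. Wdr5, Ash2l and Rbbp5 stayed below 0 and the other members above 0 without aspartame 2, except Kmt2c, at -0.013 after removal of the GC and length trend, where Nsd1 was -0.0097. Without aspartame 2, the count of called genes (1134) and members (5) became 0 and 0 with all 8 libraries, 222 and 3 with age as a covariate, 248 and 2 without the trend with GC content and length, and 0 and 0 without the 3 Xist-high libraries. Leaving out 1 of the 7 libraries gave 110 to 2082 genes, the lowest without water 3 and the highest without aspartame 3, and 3 to 6 members. With water 1, 2 or 4 or aspartame 1 or 4 left out, the genes called were 1177, 371, 215, 794 and 274. With all 8 libraries, library weights (0.159 for aspartame 2) called 443 genes and 5 members, and leaving out 1 library called 0 to 1134 genes and 0 to 5 members, above 0 only without aspartame 2. With all 8, the sign turned for Nsd1 (-0.0038) and Rbbp7 (0.044) without the trend with GC content and length, with or without the block, and for Rbbp7 (0.056) without the Xist-high libraries. Over single omissions from all 8, Rbbp7 ran from -0.16 to 0.046 and Ash2l from -0.12 to 0.018. Why the counts change under the alternatives, fewer samples included, was not tested.

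Samples of both groups share replicate numbers 1 to 4 in the labels, which do not say what a number marks. Correlations of the deviations of same-numbered libraries were 0.527, 0.147, 0.061 and -0.099, and 2 of 4 water libraries correlated best with their own number, so the numbers were not taken as pairs. With a replicate block, without aspartame 2 and water 2, 1379 genes and 6 members were called, and the block after removal of the GC and length trend gave 152 and 2. With all 8 libraries the block gave 0 and 0. Depth is unknown and limits what low members such as Wdr5 and Setd1b can show.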
